A study of Mus musculus with 15 samples.

Results

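The transcripts of cytochrome P450 families 1 to 3, the enzymes that oxidise drugs, dietary chemicals, steroids, fatty acids and bile acids, were compared in the livers of mice on 3 diets. Members were all probe sets of the array whose single platform gene symbol begins with Cyp1, Cyp2 or Cyp3 followed by a subfamily letter and a number. This rule took 52 of 45037 probe sets, for 43 of 18194 genes with probe sets of a single symbol, and used no measured value. A further 2 probe sets carry such a symbol together with another symbol, and were left out. Total RNA from the liver of each male C57BL/6J mouse was hybridised to 1 GeneChip Mouse Genome array, a 3′-based oligonucleotide array on which each probe set reads 1 transcript region. From 8 weeks of age, 5 mice ate the standard chow CRF-1 for 12 weeks (NC). A second group of 5 mice ate the CL diet, in which cocoa butter made up 60% and CRF-1 38.23%, with sodium cholate added at 0.5% and cholesterol at 1.25% (CL), used as a diet model of nonalcoholic steatohepatitis. The last 5 mice ate the CL diet with the carotenoid β-cryptoxanthin (CL+CX), at 0.003% by the treatment text of the labels and at 0.005% by the sample titles. The CL diet of both groups contained the bile salt cholate, and no group received β-cryptoxanthin on chow, so the carotenoid was measured only on top of the CL diet.

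P450 enzymes of these families sit in the endoplasmic reticulum, take electrons from the P450 reductase and hold a haem group that binds oxygen. Many of their genes are switched on by the nuclear receptors CAR (Nr1i3) and PXR (Nr1i2) and by the aryl hydrocarbon receptor (Ahr) when a foreign chemical or a bile acid reaches the hepatocyte. The Cyp2c, Cyp2d, Cyp2b and Cyp3a genes lie in clusters of close copies, and in mice several of them are made mainly by 1 sex. The families are known for their fall in inflamed liver, and for forms that make hormones and lipid mediators as well as clearing drugs.

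All values are log2 of the array signal after scaling that gave all arrays 1 shared 75th percentile, and a difference is a difference of group means on that scale. A probe set was tested when its signal reached the median of the array on all 5 arrays of at least 1 group, which held for 38 of the 52 probe sets and 31 of the 43 genes. Where a gene had several tested probe sets, the brightest stands for it. A single limma model held the 3 groups. The adjusted p follows Benjamini-Hochberg across the 20361 probe sets tested, and a value under 0.05 is a call. Because p rests on the spread between mice of 1 experiment, it covers that spread alone. Of the 38 probe sets, 29 passed this filter in all 3 groups, and 9 in only 1 or 2 groups.

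The livers carried the markers of their tissue. Of 11 hepatocyte marker genes tested, Apob and Tat were lower in CL than in NC mice and none higher (median -0.32), where 6.77% of all genes tested were lower and 7.18% higher, and their summed signal was 89055 to 111112 in NC, 63419 to 99908 in CL and 69607 to 83392 in CL+CX mice. All 9 macrophage markers (Adgre1, Cd68, Clec4f, Lyz2, C1qa, C1qb, Csf1r, Ptprc and Tyrobp) were higher in CL mice (median 1.87), with a summed signal of 850 to 1943 in NC, 5152 to 6088 in CL and 1681 to 3828 in CL+CX mice. In CL+CX relative to CL mice 6 of these 9 were lower, all but Clec4f, Csf1r and Ptprc (median -1.28). Over all genes tested, 1.79% were lower in that comparison. None of 9 sinusoidal endothelial markers was called in CL mice, and with β-cryptoxanthin Oit3 and Clec4g fell below their CL level (median -0.83), with a summed signal of 1360 to 1650 in NC, 1454 to 1922 in CL and 696 to 1544 in CL+CX mice. Of 8 stellate cell markers, Dcn was higher in CL mice (median 0.45) and lower again in CL+CX mice (median -0.24), with sums of 2016 to 2623, 2931 to 4724 and 2302 to 3054. Among 4 bile duct markers with a probe set only Sox9 was tested, with a difference of -1.13 between CL+CX and CL. The filter itself ensures that no marker tested lay below the array median in every mouse, so that says nothing about the tissue. In whole liver, fewer cells of a type and less RNA per cell cannot be told apart, and the part of these shifts in the P450 values was not tested. The array of CL replicate 2 stood apart from its group (mean r = 0.941 across probe sets, against 0.957 to 0.962 for the other CL arrays), and results that change without it are given below.

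In CL mice, 5 of the 38 P450 probe sets were lower and 1 was higher than in NC mice. The lower genes were Cyp2c54, Cyp2j9, Cyp2c68, Cyp2d9 and Cyp2d26, and the higher gene was Cyp2c70, which makes muricholic acids, the bile acids typical of mice. The 6 calls are 15.8% of the probe sets, beside 12.2% of all probe sets tested. The 5 lower ones are 13.2%, beside 6.36% of all, and the 1 higher one is 2.63%, beside 5.88%. No overlap between the CL and NC mice was seen for 1 higher probe set (2.63%, beside 4.92% of all), that of Cyp2c70, and for 3 lower ones (7.89%, beside 5.22%), those of Cyp2c54, Cyp2c68 and Cyp2d26. Differences below 0 were seen for 30 of 38 (78.9%), beside 61.2% of all, and the median difference was -0.28 against -0.09. All 6 calls were among the 29 probe sets above the filter in every group, where 12.1% of all probe sets were called. The P450 probe sets are brighter than most, and bright probe sets were lower in CL mice in general. At a log2 level of 12 and above, the median difference was -0.30 for the 7 P450 probe sets and -0.28 for all 165, and at 10 to 12 it was -0.36 for 11 P450 probe sets and -0.20 for all 923.

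The direction of many small differences depended on the scaling. Without that scaling, on the deposited signals, the median over all probe sets moved up by 0.32, from -0.09 to 0.23, and 12 of the 23 P450 genes below 0 turned positive, among them Cyp2e1 and all 3 tested Cyp3a genes, so that 11 of 31 stayed below 0. On that scale 3 P450 probe sets were called, all higher (Cyp1b1, Cyp2c55 and Cyp2c70), while 11.4% of all probe sets were called and 96.2% of those calls were higher. Cyp1b1 and Cyp2c55 had passed the filter in 1 group each. Without CL replicate 2, 13 P450 probe sets were called in CL mice, 10 lower and 3 higher, and the calls over all probe sets rose to 18.9% as well, with 11.5% lower and 7.44% higher.

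**Figure D1:**
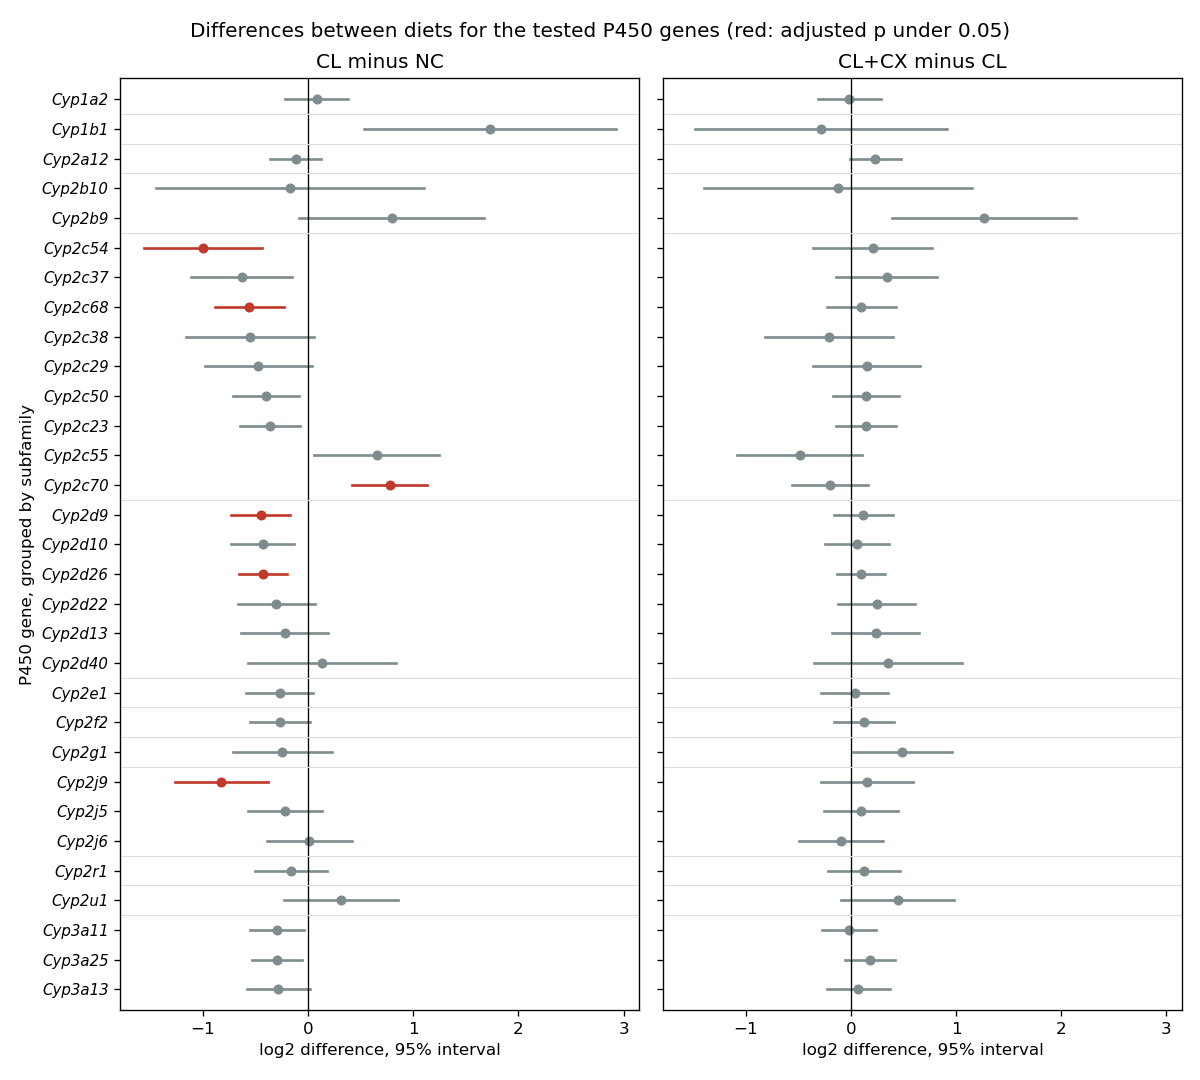
Log2 difference between group means (point) with its 95% interval (line) for the 31 tested P450 genes, CL minus NC on the left and CL+CX minus CL on the right, 5 mice per group. Red marks an adjusted p under 0.05: 6 genes on the left, of which Cyp2c70 alone lies above 0, and none on the right.

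The Cyp2c subfamily held the widest range. These enzymes oxidise drugs and turn arachidonic and linoleic acid into epoxides and hydroxy acids. Of 11 genes 9 were tested, and in CL mice 2 were lower, 1 was higher and 7 lay below 0 (median -0.47, range -0.999 to 0.77). Over all genes tested, 6.77% were lower, 7.18% were higher and 60.1% lay below 0. Cyp2c70 stood at 10.48, 10.94, 10.61, 10.24 and 10.01 in NC mice, at 11.30, 11.67, 11.15, 10.97 and 11.07 in CL mice and at 10.84, 11.04, 11.08, 11.19 and 11.02 in CL+CX mice. Every CL mouse lay above every NC mouse, and the CL+CX mice lay among the upper NC and lower CL values. Cyp2c70 rose by 0.77 (standard error 0.17, 95% interval 0.42 to 1.13, adjusted p = 0.00780, limma), a 1.71-fold change. In CL+CX mice it was 0.58 above NC (standard error 0.17, adjusted p = 0.0425) and 0.20 below CL, with a 95% interval of -0.56 to 0.16. The CL call was kept in all 15 fits without 1 mouse and in 10 of 11 other alternatives, all but the methods' test (0.0995). That in CL+CX mice was kept in 4 of 15, without NC replicate 2 or without CL replicate 2, 4 or 5, and reached an adjusted p of 0.100 without NC replicate 5 (0.0505 to 0.0894 without each of the other 10 mice). It was also lost with no filter (0.146), the methods' test (0.0995) and the β-actin covariate (0.157).

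Cyp2c54, a fatty acid oxidising member of the cluster, stood at 11.15, 11.39, 11.34, 10.94 and 10.88 in NC mice, at 10.36, 10.56, 10.77, 9.16 and 9.85 in CL mice and at 9.91, 10.28, 10.93, 10.10 and 10.51 in CL+CX mice. All CL mice were below all NC mice, CL replicate 4 was the lowest, and 1 CL+CX mouse reached the NC range. It fell by 0.999 in CL mice (standard error 0.26, adjusted p = 0.0229, limma), which is 2.00-fold lower. The adjusted p was 0.0561, 0.0544 and 0.0528 without NC replicate 2, NC replicate 3 or CL replicate 5. It was 0.0873 with no filter and 0.125 on the deposited signals, and the methods' test gave 0.0612. Cyp2c68 stood at 10.92, 10.58, 11.16, 10.46 and 10.35 in NC mice, at 10.26, 10.16, 10.09, 10.17 and 9.997 in CL mice and at 9.90, 10.33, 10.44, 10.36 and 10.14 in CL+CX mice. The CL mice were close together and below every NC mouse, by a small gap to the lowest NC mouse. Cyp2c68 fell by 0.56 (standard error 0.15, adjusted p = 0.0280, limma), 1.47-fold lower. Its adjusted p rose to between 0.0559 and 0.0735 without NC replicate 1, NC replicate 3, CL replicate 3 or CL replicate 5, and its call was kept in 5 of 11 other alternatives, with -0.37 (0.142) after quantile normalization and -0.24 (0.433) on the deposited signals.

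In CL+CX mice, Cyp2c54 lay 0.79 below NC (adjusted p = 0.0693) and Cyp2c68 0.46 below (adjusted p = 0.0707), both past no threshold. Beside them in the cluster, Cyp2c37, which hydroxylates arachidonic acid, stood at 11.84, 11.73, 11.76, 11.32 and 11.73 in NC mice, at 10.72, 11.68, 11.49, 10.36 and 10.99 in CL mice and at 10.90, 11.29, 11.71, 11.49 and 11.56 in CL+CX mice. CL replicates 1, 4 and 5 lay under the NC range, while CL replicates 2 and 3 lay inside it. The difference of -0.63 between CL and NC had an adjusted p of 0.0834, 0.0207 without CL replicate 2 and 0.0457 with the stricter filter at the 75th percentile.

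Cyp2c38 and Cyp2c29, both epoxygenases, and the latter a known CAR target, had pooled SDs between mice of 1 diet of 0.49 and 0.41, beside 0.24 for Cyp2c68. Cyp2c38 stood at 8.24, 7.52, 8.11, 7.18 and 8.15 in NC mice, at 7.99, 6.15, 7.50, 7.25 and 7.55 in CL mice and at 6.85, 7.14, 7.12, 6.96 and 7.33 in CL+CX mice. Cyp2c29 stood at 11.91, 11.78, 12.23, 11.19 and 11.59 in NC mice, at 11.53, 10.96, 11.95, 10.54 and 11.35 in CL mice and at 11.10, 11.36, 11.75, 11.46 and 11.42 in CL+CX mice. The CL groups of both overlapped the NC groups, and the CL+CX values of Cyp2c38 lay at the low end of its NC range or under it. The differences between CL and NC were -0.55 for Cyp2c38 (adjusted p = 0.230) and -0.47 for Cyp2c29 (adjusted p = 0.218). They were -0.26 for Cyp2c38 without CL replicate 2 and -0.29 for Cyp2c29 without CL replicate 4. Cyp2c50 was at -0.40 (adjusted p = 0.0934) and Cyp2c23, an arachidonic acid epoxygenase, at -0.36 (adjusted p = 0.0925). Cyp2c55, which makes a hydroxy form of arachidonic acid, was dim, and passed the filter in CL mice alone. It stood at 3.91, 4.42, 4.30, 2.78 and 3.69 in NC mice, at 4.47, 4.53, 4.67, 3.92 and 4.78 in CL mice and at 4.05, 3.72, 4.40, 3.43 and 4.31 in CL+CX mice, and the 3 groups overlapped. Its difference of 0.65 between CL and NC had an adjusted p of 0.146, and was 0.39 without NC replicate 4. Cyp2c39 and Cyp2c65 were not tested.

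The members were placed along chromosome 19 in the gene order of the RefSeq annotation. Genes that are not members were left out of this order and may lie between them. Among the members, Cyp2c29, Cyp2c38, Cyp2c68, Cyp2c37, Cyp2c54 and Cyp2c50 follow one another, apart from the untested Cyp2c39. All 6 lay between -0.999 and -0.40 in CL mice and between -0.79 and -0.25 in CL+CX mice relative to NC. Of these, Cyp2c54 and Cyp2c68 were called in CL mice and none was called in CL+CX mice. Over all genes tested, 60.1% lay below 0 in CL and 55.2% in CL+CX mice. On one side of this run lie the untested Cyp2c65 and then Cyp2c55, at 0.65 and not called. On the other side Cyp2c70 was higher in CL mice, and Cyp2c23 after it was at -0.36. These neighbours are close copies, and 3′ probe sets of close copies can share transcripts, so their values are not independent.

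**Figure D2:**
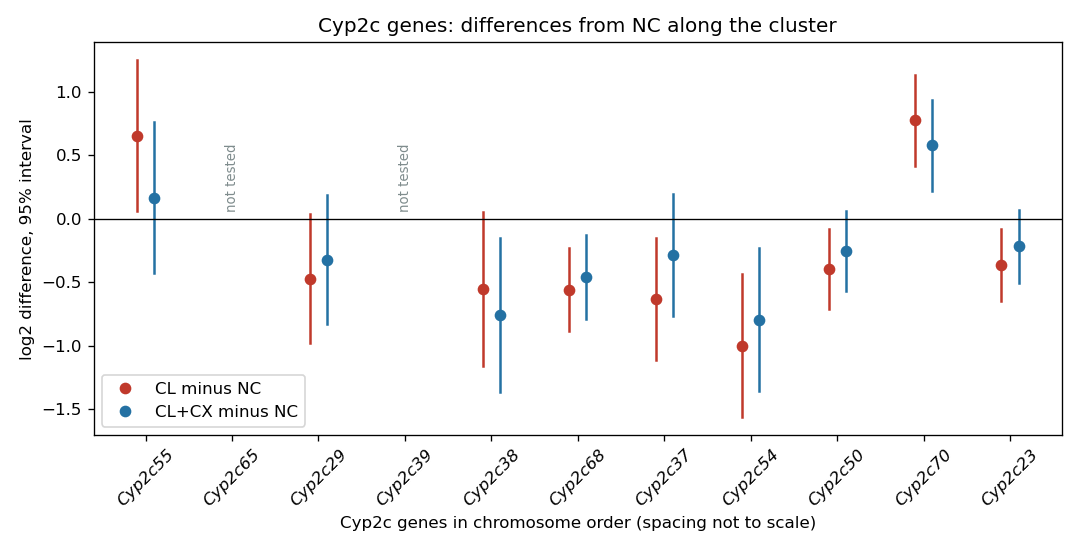
Log2 difference from NC with its 95% interval for the Cyp2c members, CL in red and CL+CX in blue, 5 mice per group. Members are in chromosome order with even spacing, and genes that are not members are left out. The 6 tested genes from Cyp2c29 to Cyp2c50 lie below 0 in both, from -0.999 to -0.40 in CL mice. Of these 6, Cyp2c54 and Cyp2c68 were called in CL mice and none in CL+CX mice. Cyp2c70 lies above 0 at 0.77 and 0.58.

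The promoters of Cyp2c70 and Cyp2c68 are shown because these genes of 1 cluster moved in opposite directions in CL mice. Each sequence is the 250 bases before the annotated start, 5′ to 3′ on the strand of the gene, from RefSeq on GRCm38.p6. That of Cyp2c70 lies at chr19:40187287-40187536 on the minus strand and that of Cyp2c68 at chr19:39741102-39741351 on the minus strand. Capitals mark matches, on either strand, to the TATA motif TATAAA, to AGGTCA and its variant AGTTCA, the units that nuclear receptors bind, and to GCGTG, the core of the site for the aryl hydrocarbon receptor.
Cyp2c70: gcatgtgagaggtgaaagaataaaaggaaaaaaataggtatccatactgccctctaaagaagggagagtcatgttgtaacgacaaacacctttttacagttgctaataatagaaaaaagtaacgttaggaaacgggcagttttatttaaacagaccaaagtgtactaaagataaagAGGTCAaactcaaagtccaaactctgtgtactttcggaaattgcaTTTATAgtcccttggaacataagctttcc
Cyp2c68: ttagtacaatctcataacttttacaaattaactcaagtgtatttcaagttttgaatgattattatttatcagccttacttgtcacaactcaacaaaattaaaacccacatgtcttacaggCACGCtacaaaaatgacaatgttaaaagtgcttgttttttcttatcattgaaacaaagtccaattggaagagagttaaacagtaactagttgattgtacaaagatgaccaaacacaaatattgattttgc
The Cyp2c70 window held AGGTCA from 74 to 69 bases before the start and TATAAA, on the opposite strand, from 29 to 24 bases before it. The Cyp2c68 window held only GCGTG, on the opposite strand, from 130 to 126 bases before the start.

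Windows were found for 35 of the 43 genes, 38 windows in all. TATAAA was in 17 of them (44.7%), beside 12.4% of all 32851 windows of the same length that were counted. The windows of 1 chromosome, which holds none of the 43 genes, were left out of that count. AGGTCA was in 12 (31.6%), beside 14.0% of all, and AGTTCA was in 3 (7.89%), beside 11.8%. GCGTG was in 7 (18.4%), beside 28.2%. Pairs of these nuclear receptor units, as direct repeats 1 or 4 bases apart or an everted repeat 6 bases apart, were in none of the 38 windows, beside 0.067%, 0.0244% and 0.00913% of all windows. Neighbouring copies share sequence, so the windows are not independent, and a match to these letters is not evidence of binding.

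The Cyp2d subfamily, the mouse relatives of the human enzyme that clears many drugs, moved in a narrower range. Of 8 genes 6 were tested, and in CL mice 2 were lower, none was higher and 5 lay below 0 (median -0.36, range -0.45 to 0.13). Over all genes tested, 6.77% were lower and 60.1% lay below 0. With the signals as deposited, Cyp2d13 and Cyp2d22 turned positive and Cyp2d9, Cyp2d10 and Cyp2d26 stayed below 0, at -0.14 to -0.11. Cyp2d26 stood at 12.37, 12.40, 12.33, 12.16 and 12.25 in NC mice, at 11.88, 12.03, 11.94, 11.66 and 11.86 in CL mice and at 11.73, 12.00, 12.14, 11.95 and 12.05 in CL+CX mice. No mouse on the CL diet, with or without β-cryptoxanthin, reached the lowest NC mouse. It fell by 0.43 in CL mice (standard error 0.11, adjusted p = 0.0181, limma), 1.34-fold lower. The call was kept in all 15 fits without 1 mouse and in 7 of 11 other alternatives. It was lost with no filter (adjusted p = 0.0834), after quantile normalization (-0.21, adjusted p = 0.176), on the deposited signals (-0.11, adjusted p = 0.686) and with the β-actin covariate (adjusted p = 0.0763). It was also the only P450 gene called between CL and NC mice by the methods' test, which compares the 3 diets with unequal variances and then in pairs.

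Cyp2d9, a male-predominant steroid hydroxylase, stood at 12.76, 12.90, 12.67, 12.59 and 12.66 in NC mice, at 11.97, 12.70, 12.36, 12.01 and 12.26 in CL mice and at 12.32, 12.46, 12.37, 12.43 and 12.33 in CL+CX mice. CL replicate 2 lay inside the NC range and the other 4 CL mice below it, as did all CL+CX mice. Cyp2d9 fell by 0.45 in CL mice (standard error 0.13, adjusted p = 0.0347, limma), 1.37-fold lower. The adjusted p was 0.00322 without CL replicate 2, and 0.0568 to 0.0868 without NC replicate 1, 2, 3 or 5 or without CL replicate 1, 4 or 5. Its call was kept in 5 of 11 other alternatives, and the difference was -0.15 after quantile normalization (adjusted p = 0.236). Cyp2d10 stood at 12.41, 12.46, 12.36, 12.15 and 12.33 in NC mice, at 11.80, 12.39, 12.04, 11.53 and 11.79 in CL mice and at 11.76, 12.02, 12.10, 12.00 and 11.96 in CL+CX mice. Its pattern was like that of Cyp2d9, with CL replicate 2 alone inside the NC range, and its difference of -0.43 had an adjusted p of 0.0593 (0.00552 without CL replicate 2). Cyp2d22 lay at -0.30 and Cyp2d13 at -0.22, Cyp2d40 at 0.13, with adjusted p of 0.279 to 0.833, and Cyp2d12 and Cyp2d34 were not tested.

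The promoters of Cyp2d9 and Cyp2d26 are shown as those of the called pair of this subfamily, at chr15:82452127-82452376 on the plus strand and chr15:82794246-82794495 on the minus strand of the same build, with capitals as above.
Cyp2d9: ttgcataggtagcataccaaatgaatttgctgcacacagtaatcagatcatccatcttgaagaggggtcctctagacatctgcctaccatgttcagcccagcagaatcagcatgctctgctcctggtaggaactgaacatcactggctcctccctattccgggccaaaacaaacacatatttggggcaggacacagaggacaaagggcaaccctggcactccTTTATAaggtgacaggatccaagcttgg
Cyp2d26: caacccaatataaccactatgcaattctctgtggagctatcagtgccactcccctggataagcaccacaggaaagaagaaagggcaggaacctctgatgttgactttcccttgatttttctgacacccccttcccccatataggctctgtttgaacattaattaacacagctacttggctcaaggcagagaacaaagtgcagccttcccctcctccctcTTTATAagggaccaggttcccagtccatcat
Both held TATAAA on the opposite strand, from 28 to 23 bases before the start in Cyp2d9 and from 31 to 26 in Cyp2d26, and none of the other motifs.

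The Cyp2j enzymes make epoxides and hydroxy acids from arachidonic acid. Of their genes, 3 of 5 were tested and 1 was lower in CL mice (median -0.22), beside 6.77% of all genes tested. Cyp2j9 stood at 5.80, 5.69, 5.52, 5.64 and 6.18 in NC mice, at 4.44, 4.65, 4.86, 5.54 and 5.21 in CL mice and at 4.75, 5.10, 4.92, 5.62 and 5.09 in CL+CX mice. Replicate 4 of the CL mice and replicate 4 of the CL+CX mice just reached the NC range, and the other 8 lay below it. It fell by 0.83 in CL mice (standard error 0.21, 95% interval -1.27 to -0.39, adjusted p = 0.0175, limma), 1.77-fold lower. The call was kept in all 15 fits without 1 mouse and in 6 of 10 other alternatives. It was lost with no filter (adjusted p = 0.0724), on the deposited signals (-0.51, adjusted p = 0.150) and by the methods' test (0.0608). It was also lost with the β-actin covariate (-0.64, adjusted p = 0.114). In CL+CX mice it lay 0.67 below NC (adjusted p = 0.0525). Cyp2j5, the epoxygenase of kidney and liver, was at -0.22 and Cyp2j6 at 0.01, and the second probe set of Cyp2j6 gave -0.35. Cyp2j11 and Cyp2j13 were not tested.

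The 3 tested Cyp3a genes had like differences between CL and NC, at -0.30 for Cyp3a11, the main drug-oxidising form of adult mouse liver and a PXR target, -0.29 for Cyp3a25 and -0.28 for Cyp3a13. None was called, with adjusted p of 0.125, 0.102 and 0.210, and all turned to 0.02 to 0.03 with the signals as deposited. Cyp3a11 stood at 13.28, 13.31, 13.21, 13.02 and 13.23 in NC mice, at 12.69, 13.26, 12.99, 12.67 and 12.94 in CL mice and at 12.74, 12.91, 12.97, 12.94 and 12.89 in CL+CX mice. CL replicate 2 lay among the NC mice, and all CL+CX mice lay below the lowest NC mouse. Without CL replicate 2 the difference between CL and NC was -0.39, with an adjusted p of 0.0198. Cyp3a16 and Cyp3a44 were not tested.

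**Figure D3:**
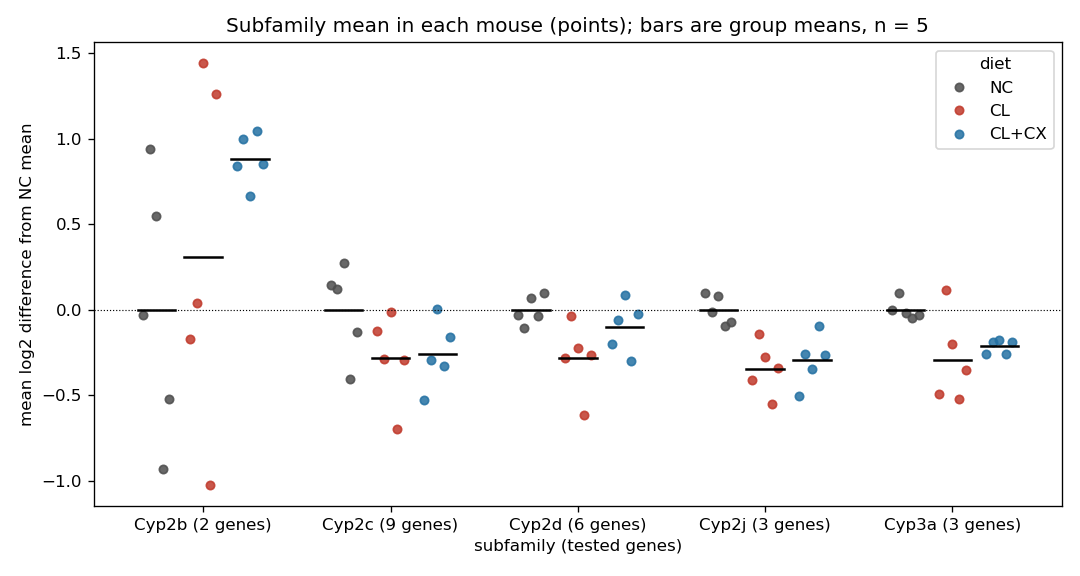
Log2 difference from the mean of the NC mice, averaged over the tested genes of each subfamily, 1 point per mouse, for subfamilies with more than 1 tested gene; black bars are group means of 5 mice. The Cyp2j values of all CL mice lie below all NC mice, whereas 1 CL mouse of the Cyp3a subfamily lies above them at 0.11. Within Cyp2j the CL minus NC difference was -0.83 for Cyp2j9, -0.22 for Cyp2j5 and 0.01 for Cyp2j6.

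As subfamily means in each mouse, the CL mice lay at -0.55 to -0.14 for Cyp2j and the NC mice at -0.09 to 0.10. The Cyp2j genes were unlike each other, at -0.83 (Cyp2j9), -0.22 (Cyp2j5) and 0.01 (Cyp2j6) between CL and NC. On the deposited signals they were at -0.51, 0.09 and 0.33. For Cyp2d the CL mice lay at -0.61 to -0.04 and the NC mice at -0.10 to 0.10. For Cyp2c the ranges were -0.70 to -0.01 and -0.41 to 0.28. The SD between the 5 CL mice was 0.26 for Cyp3a, beside 0.06 in NC and 0.04 in CL+CX mice, and CL replicate 2 was the highest and CL replicate 4 the lowest of them. These means describe the members tested, and no test was made of them.

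The largest difference from NC in CL+CX mice was that of a Cyp2b gene. Cyp2b9, which in mice is made mainly by females and is under hormonal control, stood at 3.63, 4.47, 3.65, 3.41 and 2.89 in NC mice, at 4.39, 2.93, 5.37, 3.77 and 5.55 in CL mice and at 5.23, 5.72, 5.82, 5.84 and 5.74 in CL+CX mice. Every CL+CX mouse lay above every NC mouse, and the CL mice spread from the lowest NC value to the CL+CX range. Cyp2b9 was 2.06 higher in CL+CX than in NC mice (standard error 0.41, 95% interval 1.18 to 2.94, adjusted p = 0.00697, limma). It passed the filter only through the CL+CX group, where it is highest, so the filter favoured a higher CL+CX value. The NC mean lay at the array medians, which leaves the size of the difference imprecise, and no fold is given. Cyp2b9 reached the array median on 3 of 5 NC and 4 of 5 CL arrays. With an offset of 16 added to the signals in place of the floor, the difference was 1.23, and the call was kept in that fit, the other 9 alternatives and all 15 fits without 1 mouse.

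Against CL mice, Cyp2b9 was 1.27 higher with β-cryptoxanthin (standard error 0.41, 95% interval 0.39 to 2.14, adjusted p = 0.104), and between CL and NC the difference was 0.79 (adjusted p = 0.233). Neither passed the test. The CL+CX value was called with the offset of 16 (0.77, adjusted p = 0.0440) and without CL replicate 5 (1.56, adjusted p = 0.0386), and the CL value without CL replicate 2 (1.16, adjusted p = 0.0336). Cyp2b10, the classic target of CAR, was at -0.18 between CL and NC and at -0.12 between CL+CX and CL, with adjusted p of 0.882 and 0.938. Its 3 probe sets gave -1.49 to -0.10 between CL and NC, and the SD between mice of 1 diet reached 2.56 for the dimmest of them. That dimmest one is the _at probe set and gave the -1.49 (adjusted p = 0.361, limma). The others, with the one used here, end in _s_at, the suffix of probe sets shared between transcripts. Cyp2b13 and Cyp2b19 were not tested. The group means of Cyp2b13 were 1.99 in NC, 1.75 in CL and 3.54 in CL+CX mice, close to or under the array medians of 3.50 to 3.76.

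**Figure D4:**
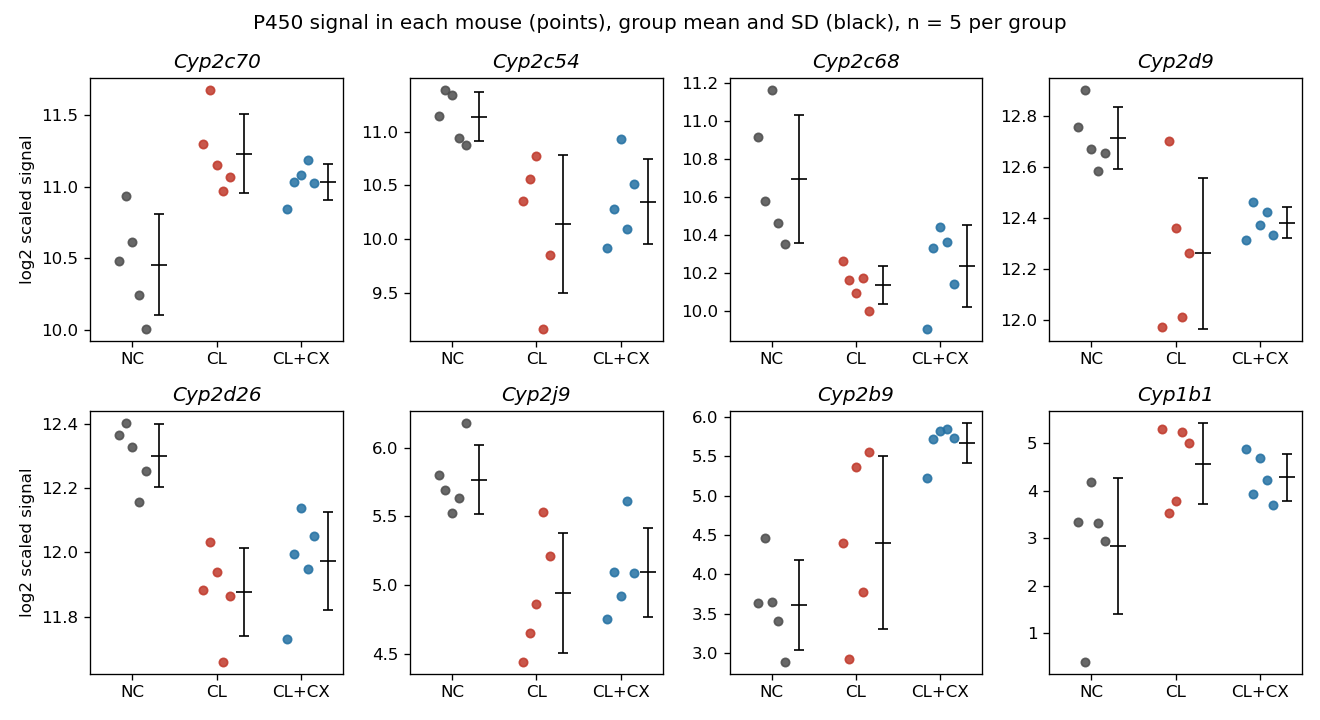
Log2 scaled signal of 8 P450 genes in each mouse (points) with the group mean and SD (black), 5 mice per group; each panel has its own axis. Cyp2c70 is higher in every CL mouse than in any NC mouse, Cyp2c54, Cyp2c68 and Cyp2d26 are lower in every CL mouse, and Cyp2b9 is higher in every CL+CX mouse than in any NC mouse.

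The promoter windows of Cyp2b9 and its neighbour Cyp2b13 are shown because they are near copies, at chr7:26173159-26173408 and chr7:26061245-26061494, both on the plus strand of GRCm38.p6. Capitals again mark the motifs.
Cyp2b9: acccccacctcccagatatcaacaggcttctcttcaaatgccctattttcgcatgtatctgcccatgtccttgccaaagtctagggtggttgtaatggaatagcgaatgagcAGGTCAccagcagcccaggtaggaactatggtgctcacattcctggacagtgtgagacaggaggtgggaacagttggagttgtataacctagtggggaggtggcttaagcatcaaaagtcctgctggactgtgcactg
Cyp2b13: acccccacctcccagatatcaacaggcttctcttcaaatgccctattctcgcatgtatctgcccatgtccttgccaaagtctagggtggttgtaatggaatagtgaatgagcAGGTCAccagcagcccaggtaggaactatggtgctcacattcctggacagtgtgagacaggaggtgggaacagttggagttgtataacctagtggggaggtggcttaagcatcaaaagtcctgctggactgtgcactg
They were identical at 248 of 250 bases (99.2%), differing at 203 and at 147 bases before the start. Both held AGGTCA from 138 to 133 bases before the start, and no match to the other motifs.

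Family 1 is the main target of the aryl hydrocarbon receptor. Cyp1a2, the caffeine-oxidising form of the hepatocyte, stood at 11.10, 11.12, 11.51, 10.64 and 11.01 in NC mice, at 11.02, 11.40, 11.30, 10.99 and 11.07 in CL mice and at 11.11, 11.18, 11.19, 11.05 and 11.19 in CL+CX mice. The 3 groups overlapped, and the difference between CL and NC was 0.08, with a 95% interval of -0.22 to 0.38. Cyp1a1 was not tested. Cyp1b1, which oxidises oestradiol and aromatic hydrocarbons, was dim, and 1 of its 3 probe sets passed the filter, in CL+CX mice alone. It stood at 3.34, 0.40, 4.19, 3.31 and 2.94 in NC mice, at 5.30, 3.52, 3.77, 5.23 and 4.99 in CL mice and at 4.86, 3.93, 4.68, 4.23 and 3.70 in CL+CX mice. NC replicate 2 lay far under the others, and the NC and CL groups overlapped. Cyp1b1 was 1.73 higher in CL than in NC mice (standard error 0.56, 95% interval 0.53 to 2.92), with an adjusted p of 0.0567. The value was 1.12 without NC replicate 2 and 0.72 with an offset of 16. It was called in 5 of 10 other alternatives (that offset, the deposited signals, the trend with a robust prior, the replicate block and the mean of probe sets) and without NC replicate 3 or CL replicate 2 (adjusted p = 0.0331 and 0.0315). The methods' test gave 0.298.

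The single genes of the other Cyp2 subfamilies were not called in any comparison. Cyp2e1, which oxidises ethanol and acetaminophen, stood at 13.25, 13.46, 13.09, 13.12 and 13.23 in NC mice, at 12.74, 13.39, 13.11, 12.60 and 12.95 in CL mice and at 12.69, 13.05, 13.25, 12.95 and 13.05 in CL+CX mice. The groups overlapped, the difference between CL and NC was -0.27 (95% interval -0.59 to 0.05), and it was 0.05 with the signals as deposited. Cyp2f2, which activates naphthalene, was at -0.26, Cyp2a12, which hydroxylates bile acids, at -0.12 and the vitamin D hydroxylase Cyp2r1 at -0.16. Cyp2g1, best known from the olfactory lining, passed the filter in NC mice alone and was at -0.24. The fatty acid hydroxylase Cyp2u1 was at 0.32 by its brighter probe set and at -0.14 by the other, and Cyp2s1 was not tested. Over the untested probe sets of all subfamilies, group means lay between 0.61 and 4.59.

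Between CL+CX and CL mice, no P450 probe set of 38 was called, beside 3.12% of all probe sets tested. At an unadjusted p under 0.05 there were 5 (13.2%), beside 19.7% of all, and the methods' test also called none. These 5 were the probe sets of Cyp2b9 and Cyp2g1 and the dimmer probe sets of Cyp2d13, Cyp2d22 and Cyp2j5, and all 5 were higher in CL+CX mice. No P450 probe set separated the 2 groups without overlap, beside 2.97% of all that were higher and 2.02% that were lower. The median difference was 0.12 over the P450 probe sets and 0.04 over all. The 95% intervals differed in width among bright genes. For Cyp3a11 the 95% interval of the difference was -0.28 to 0.24, for Cyp2e1 -0.28 to 0.36, for Cyp1a2 -0.31 to 0.29 and for Cyp2d26 -0.13 to 0.33. They were wider for Cyp2c29, at -0.36 to 0.66, for Cyp2c37, at -0.14 to 0.82, and for Cyp2c54, at -0.36 to 0.77. The count was 1 without CL+CX replicate 1, for Cyp2d13, and 1 without CL replicate 5, for Cyp2b9, where 3.83% and 4.73% of all probe sets were called. The 3′ to 5′ difference of the β-actin control was 0.699 to 0.945 on the CL arrays and 0.949 to 1.17 on the CL+CX arrays, without overlap. With it as a covariate 0.00491% of all probe sets were called, so the absence of P450 calls in that fit carries no information on these genes.

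Between CL+CX and NC mice, 2 of 38 probe sets were called, Cyp2b9 and Cyp2c70, both higher (5.26%, beside 9.74% of all). Cyp2b9 was tested only through the CL+CX group, where it is high, and among the 29 probe sets above the filter in every group Cyp2c70 was the 1 call (beside 9.78% of all). No overlap between the groups was seen for Cyp2b9 on the higher side (2.63%, beside 5.57% of all) and for Cyp2d9, Cyp2d10, Cyp2d26 and Cyp3a11 on the lower side (10.5%, beside 8.59%). Of the 4 lower genes, Cyp2d26 had the lowest adjusted p, at 0.0649 for a difference of -0.33. The count rose to 9 without CL replicate 2, when 14.7% of all probe sets were called, and to 5 without CL replicate 4, when 9.99% were. It was 1 without NC replicate 1, 3, 4 or 5, CL replicate 3, or CL+CX replicate 1, 2 or 5, with 5.84% to 8.66% of all called. Among the 3 diets together, 6 probe sets differed, those of Cyp2b9, Cyp2c70, Cyp2j9, Cyp2d26, Cyp2c54 and Cyp2c68 (15.8%, beside 15.5% of all). The comparisons share mice, so their values are given side by side and no overlap is counted.

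The receptors and factors that drive these genes were measured too. Ahr was at 0.05 between CL and NC, Nr1i2 (PXR) at -0.22 and Nr1i3 (CAR) at -0.41, with adjusted p of 0.861, 0.422 and 0.0515. Of 23 receptors and transcription factors tested, 8 were lower in CL mice and none was higher (median -0.30, beside -0.08 over all genes tested). Of all genes tested, 6.77% were lower and 7.18% higher. The 8 lower ones were Ppargc1a (-1.33), Hlf (-0.86), Cux2 (-0.85), Tef (-0.75), Ppara (-0.61), Hnf4a (-0.56), Cebpa (-0.53) and Rxra (-0.41). With β-cryptoxanthin 7 were higher and 1 lower than in CL mice, with a median of 0.23 beside 0.02 over all genes (1.46% of all genes tested were higher and 1.79% lower). Among them were Dbp, Tef and Hlf, the clock-controlled factors known to act on several P450 and receptor genes. Dbp was 4.12 higher (adjusted p = 1.34e-06, limma), Tef 1.17 and Hlf 0.85. The methods give no hour of killing for any group, and its part in these values was not tested. Cebpa was 0.83, Foxa2 0.92, Rxra 0.54 and Ppara 0.44 higher, and Bcl6 was at -1.71.

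Por, the P450 reductase, had no probe set of a single symbol, so its level was not measured here. Of 13 genes for electron supply and haem, 1 was higher in CL mice and none lower (median -0.09). Over all genes tested, 7.18% were higher and 6.77% lower. The higher one was Hmox1, the haem-degrading oxygenase, at 1.21 (adjusted p = 0.00235, limma). With β-cryptoxanthin Alas1, the first enzyme of haem synthesis, was 1.06 higher than in CL mice (adjusted p = 0.0424, limma). It was the only call of this list in that comparison, where 1.46% of all genes tested were higher.

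Of 15 other targets of CAR, PXR or the aryl hydrocarbon receptor, 3 were higher and 4 lower in CL mice (median -0.0036). Over all genes tested, 7.18% were higher and 6.77% lower (median -0.08). The glutathione transferases Gstm3 (2.6) and Gstm1 (0.49) and the monooxygenase Fmo5 (0.79) were higher. The carboxylesterase Ces2a (-0.75), the sulfate donor enzyme Papss2 (-0.59), Aldh1a1 (-0.58) and the transporter Abcc3 (-0.50) were lower. None of the 15 was called between CL+CX and CL mice, beside 1.46% of all genes tested that were higher and 1.79% that were lower. Relative to NC, 4 of the 15 were higher and 3 lower in CL+CX mice, among them Nqo1 (0.84) and Gadd45b (-1.92). Over all genes tested, 5.07% were higher and 4.87% lower in that comparison.

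P450 genes outside families 1 to 3 were compared as the nearest relatives. Of 19 tested, 6 were lower in CL mice and none was higher (median -0.34, range -2.90 to 0.46). In families 1 to 3, 5 of 31 genes were lower and 1 was higher (median -0.27, range -0.999 to 1.73). Over all genes tested, 6.77% were lower and 7.18% higher (median -0.08). Cyp8b1 and Cyp7b1 of bile acid synthesis were at -2.90 and -1.13, Cyp26a1, which breaks down retinoic acid, at -1.92, the fatty acid hydroxylases Cyp4a31 and Cyp4a14 at -1.40 and -0.50 and the steroid enzyme Cyp17a1 at -1.18. The groups of genes were not tested against each other. Of genes known to differ by sex and not in these families, 2 of 11 male-biased and 2 of 5 female-biased genes were lower in CL mice and none was higher, with medians of -0.29 and -0.23. They were Susd4 (-2.40), Cyp7b1, Acot3 (-1.64) and Cux2. The male-biased Moxd1 missed the filter and was not tested, with group means of 6.71 in NC, 1.62 in CL and 1.44 in CL+CX mice. The female-biased Sult3a1, Hao2 and Prom1 also missed it, with group means of 0.39 to 4.05. Of genes placed by zone in the lobule, 1 of 10 pericentral genes was higher and 1 lower, and 1 of 8 periportal genes was higher and 2 lower, with medians of -0.13 and -0.19. Glul (0.36) and Cdh1 (0.73) were the higher ones, and Rhbg (-0.95), Etnppl (-1.36) and Pck1 (-0.51) the lower ones. Set beside the shares over all genes, counts of 1 or 2 in lists this short say little about sex or zone. Between CL+CX and CL mice, Elovl3 (-0.96) and Cyp4b1 (-1.14) were the only calls in the lists of sex-biased, zonated and other P450 genes.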

How the data were processed

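The authors hybridised RNA of each liver to 1 array and summarised it with MAS5. The deposited values are the intensity of each probe set on a linear scale, and their 75th percentiles differed between arrays (41.2 to 78.7), so the scaling and filter on Present calls of the methods are not in them. Here 64 control probe sets were left out, every array was brought to the same 75th percentile, 53.8, a floor of 1 was applied (to 11.3% of values) and log2 was taken. With array medians of 9.45 to 16.6 before scaling, dim genes are measured with little precision, and 5 arrays per group limit the rest.

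Groups were taken from the labels. Equal replicate numbers do not pair mice, since the deviations of such mice from the group means correlated at -0.132 to 0.135. A tested probe set reached the array median on all 5 arrays of at least 1 group. The group means came from a single model (limma 3.58.1, R 4.3.3), a step first tested on simulated data, and p-values were adjusted by the Benjamini-Hochberg method across 20361 probe sets. Gene names are those of the platform annotation (34958 probe sets with 1 symbol, 932 with several and 9160 with none), and gene order and promoter sequence are from RefSeq. Of the probe sets of the P450 genes, 44 end in _at, 4 in _a_at and 4 in _s_at, the last being shared between transcripts.

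Values in each mouse are given for the 12 genes with the largest difference between CL and NC, for genes past a test, for the largest of each subfamily with several tested genes, and for Cyp1a2, Cyp2e1 and Cyp3a11. From the lists of receptors, electron and haem supply, other targets, zonation, sex bias, other P450 families and cell type markers, genes past the test between CL and NC or between CL+CX and CL were named, with a few also between CL+CX and NC, and each list was described by its counts and median. The P450 genes and these lists were chosen with earlier results of these data known. The alternatives were the deposited signals without scaling, quantile normalization, no filter, a filter at the 75th percentile, adding 16 in place of the floor, a trend with a robust prior, only the 2 groups compared, the methods' test, the replicate number as a block, the β-actin covariate (taken from an earlier analysis of these data), gene values averaged over probe sets, and each of the 15 mice left out in turn. Python 3.11.15 with pandas 2.3.3, numpy 2.4.6 and, for the plots, matplotlib 3.10.9 did the rest.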

Additional observations from a re-analysis of the deposited data

Results flagged for a closer look

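Among 48 sets of 5 mice, 16 genes in 3 groups, 2 had a mouse far from the other 4, its gap to the nearest mouse being more than 0.71 of the range of the group. Chance alone gives about 1 in 20 such sets. Cyp2b9 in CL+CX replicate 1 was at 5.23, under the other 4 CL+CX mice at 5.72 to 5.84, and still above every NC mouse. Cyp2c37 in NC replicate 4 was at 11.3, under the other 4 NC mice at 11.7 to 11.8.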

How the results depend on the processing

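No called difference of the 16 genes given in each mouse changed sign under any alternative. Over those genes and the 3 comparisons, 677 of 720 values without 1 mouse and 451 of 516 under the other alternatives kept their side of the threshold. These counts include uncalled values that changed sign. Between CL and NC, for example, Cyp2e1 went from -0.27 to 0.05 on the deposited signals. The counts of P450 probe sets called are given with the share of all probe sets called under the same alternative. Between CL and NC (6, beside 12.2%) it was 3 with the signals as deposited (11.4%), 1 with no filter (2.5%), 3 with quantile normalization (11.6%), 1 with the methods' test (6.75%), 2 with the β-actin covariate (5.59%) and 4 to 13 without 1 mouse (8.4% to 18.9%). Between CL+CX and CL (0, beside 3.12%) it was 1 with an offset of 16 (4.88%) and 0 to 1 without 1 mouse (0.511% to 4.73%). Between CL+CX and NC (2, beside 9.74%) it was 1 with no filter (1.35%), 4 with the stricter filter (18.7%), 6 with an offset of 16 (11.6%), 5 with a trend and robust prior (10.9%), 10 with only the 2 groups compared (15.8%), 4 with the methods' test (8.85%), 4 with the replicate block (8.24%), 1 with the β-actin covariate (3.25%) and 1 to 9 without 1 mouse (5.84% to 14.7%). With no filter, 45037 probe sets shared the adjustment. Over the 3 diets together (6, beside 15.5%) it was 0 with no filter (2.36%) and 2 to 14 without 1 mouse, with 2 without NC replicate 1 (10.6%), 3 without NC replicate 2 (11.5%) and 14 without CL replicate 2 (22.1%). The replicate number as a block gave 8 calls between CL and NC (10.5%), and the numbers are not known to pair mice. The cause of the other changes was not tested. Precision was lowest for dim genes: below a log2 level of 6 the median pooled SD was 0.62 over 11 P450 probe sets, and at 12 and above 0.19 over 7.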
